A study of Mus musculus with 12 samples.

Results

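The 10 matricellular genes *Spp1*, *Tnc*, *Thbs1*, *Thbs2*, *Thbs3*, *Thbs4*, *Sparc*, *Sparcl1*, *Fn1* and *Fbln2* were followed in whole mouse hearts after acute myocardial infarction (AMI). They were chosen by their gene symbols, and each symbol stood on a single identifier among the 53801 genes of the deposited tables. RNA was sequenced from 4 hearts after sham surgery (sham), 4 hearts on day 1 after AMI and 4 hearts on day 7 after AMI, with 1 library per heart. All mice were adult male wild-type C57BL/6N, the AMI groups had a ligature that was left on the left coronary artery, and the labels name no engineered allele or drug. The whole heart was taken, so infarct, border zone and distant muscle are mixed in each library. The day on which sham hearts were taken is not given for each heart, and the labels' protocol names days 0, 1 and 7 for the series.

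Matricellular proteins are secreted into the extracellular matrix but mostly do not build it. They bind collagen, growth factors, proteases and cell surface receptors such as integrins, and so tell cells about the state of the matrix. Many are scarce in the healthy adult heart and are known to appear in the infarct, where inflammatory cells clear dead muscle and fibroblasts then lay down a scar. Fibronectin and fibulin-2 are structural glycoproteins that are often grouped with them, because the provisional matrix on which a scar is built depends on them.

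The libraries held between 23204551 and 32166517 counts. CPM values are counts scaled to a common library size after normalization with edgeR's TMM method. TPM values also allow for transcript length, so levels of different genes are compared in TPM only. A gene was called when its fold change (FC) was 2 or greater and its false discovery rate (FDR) was below 0.05 over 15306 tested genes in edgeR's quasi-likelihood test, which fitted the 12 libraries together. Adjusted p-values are from that test unless another is named, errors of log2 FCs are standard errors (SE), and the comparisons with sham share the same 4 sham hearts. Cardiomyocyte genes were abundant in every library, as the label heart implies. The summed level of 8 cardiomyocyte markers was 63428 to 74461 CPM in sham hearts, 35970 to 47708 on day 1 and 28943 to 36032 on day 7, and no defining marker was at 0. In RNA of a whole heart, fewer cells of a type and less RNA per cell cannot be told apart, and the same holds for more of either.

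The 10 genes together made up a larger part of the transcripts at each time point. Their summed TPM was 319, 394, 470 and 408 in the sham hearts, 827, 1069, 814 and 861 on day 1, and 5073, 3292, 2512 and 3095 on day 7. Every day 1 heart lay above every sham heart, and every day 7 heart above every day 1 heart. On day 1 against sham, 5 of the 10 genes were called higher (*Spp1*, *Tnc*, *Thbs1*, *Thbs4* and *Fn1*), where 7.79% of all tested genes were called higher. None was called lower (2.98% of all tested genes). On day 7 against sham, 9 of the 10 were called higher, all but *Sparcl1* (15.3% of all tested genes), and 0 lower (5.88%). On day 7 against day 1, 7 of the 10 were called higher, all but *Spp1*, *Tnc* and *Fbln2* (8.55%), and 0 lower (2.69%). The median log2 FC of the 10 genes was 1.38, 3.31 and 1.96 in these comparisons, and that of all tested genes was −0.01, 0.03 and 0.02. The genes were chosen with earlier results of these data known. Counts and medians beside those of all tested genes are therefore a description and not a test.

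Groups of hearts that did not overlap gave a similar picture for the higher genes. In 7 of the 10 genes every day 1 heart was above every sham heart (19.6% of all tested genes). In *Thbs2* and *Sparcl1*, 2 of the 10, every day 1 heart was below. That count is near the share of all tested genes (17.1%). That order of *Thbs2* and *Sparcl1* holds for CPM, and in TPM both genes overlapped between day 1 and sham. On day 7 each of the 10 was above sham without overlap (28.3%), and 0 were below (24.7%). From day 1 to day 7, 8 of the 10 were higher without overlap (23.5%), and 0 were lower (20.9%).

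**Figure D1:**
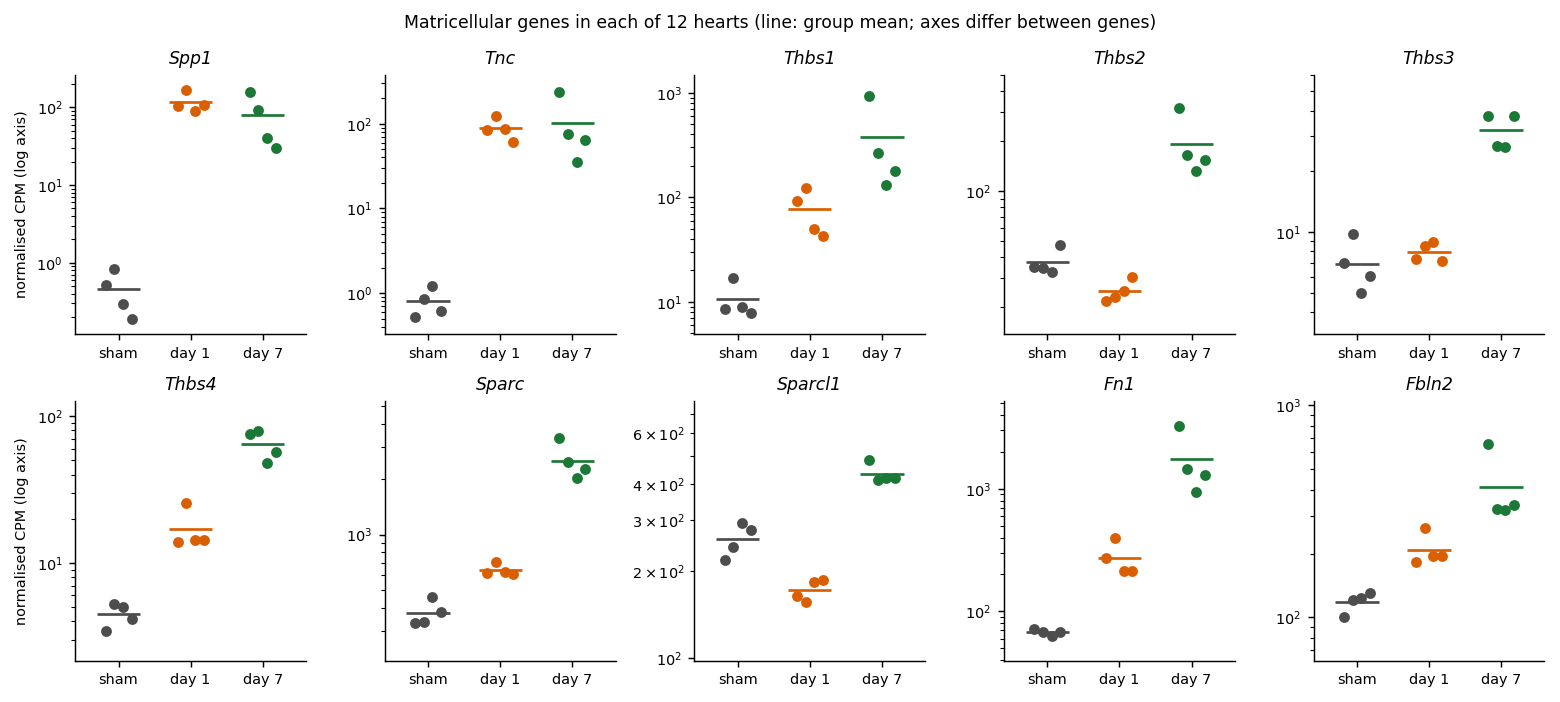
Normalized CPM of the 10 genes in each of the 12 hearts, on a log axis that differs between panels, with a line at the mean of each group of 4 hearts. In *Spp1* and *Tnc* the day 7 hearts overlap the day 1 hearts, *Thbs2* and *Sparcl1* are below sham on day 1 on this CPM scale and above it on day 7, *Thbs3* overlaps sham on day 1, and the other 5 genes step up without overlap at both times.

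*Spp1* and *Tnc* went from a few reads in sham hearts to high levels on day 1, and neither was called different between day 1 and day 7. *Spp1* (chr5:104435118-104441050 in GRCm38, plus strand, protein coding) encodes osteopontin, a secreted phosphoprotein that macrophages are known to make after injury and that binds integrins and CD44. Its level was 0.522, 0.821, 0.291 and 0.191 CPM in the sham hearts. It was 104, 165, 89.1 and 108 CPM on day 1, and 159, 92.5, 40.1 and 29.9 CPM on day 7. The sham values came from 4 to 20 counts per library, close to the floor of 3 counts that was taken as the least a library can show, so the size of the FC rests on few sham reads. The AMI hearts of both days were above every sham heart, and of the day 7 hearts 2 lay within the day 1 range and 2 below it. The log2 FC was 7.94 on day 1 (SE 0.639, adjusted p = 4.12e-06), which ranked 3 among the 15306 tested genes, and 7.41 on day 7 (SE 0.637, adjusted p = 4.38e-07). Between day 1 and day 7 the log2 FC was −0.53 (95% confidence interval −1.38 to 0.31, adjusted p = 0.285). That comparison turned on the day 7 replicate 1 heart. Without it the log2 FC was −1.11 and *Spp1* was called lower on day 7 than on day 1 (adjusted p = 0.0152).

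*Tnc* (chr4:63959785-64047015, minus strand, protein coding) encodes tenascin-C, a large multi-armed glycoprotein that loosens the grip of cells on matrix and is nearly absent from healthy heart muscle. It had 0.522, 0.862, 1.21 and 0.622 CPM in sham hearts, from 10 to 25 counts per library. The day 1 hearts had 84.1, 123, 87.4 and 60.1 CPM, and the day 7 hearts 238, 76.1, 35.6 and 63.7 CPM. Sham hearts were apart from all AMI hearts, and the day 7 hearts held both the lowest and the highest AMI values. The log2 FC against sham was 6.77 on day 1 (SE 0.634, adjusted p = 9.61e-06) and 6.99 on day 7 (SE 0.636, adjusted p = 7.16e-07). Day 7 and day 1 differed by 0.22 on the log2 scale (95% confidence interval −0.68 to 1.13, adjusted p = 0.694). Without the day 7 replicate 1 heart the difference was −0.60 (adjusted p = 0.0679).

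In the centred log2 CPM profiles over 12 hearts, *Spp1* and *Tnc* were each other's nearest gene of all tested, with a root mean square difference of 0.772. The likeness is a description, and it depended on the scale. On log2(TPM + 1), *Tnc* was number 3 for *Spp1* and *Spp1* was number 105 for *Tnc*. Of the 10 genes, 7 had a promoter in the RefSeq table of GRCm38.p6, and *Thbs1*, *Sparcl1* and *Fn1* had none there. Promoters span 250 bases before to 50 bases after a transcript's start, and both strands were searched for 4 motifs. TATAAA, the letters of a TATA box, was found for *Spp1*, *Tnc* and *Thbs2* and is held by 13.6% of all 32544 promoters. Members are counted by gene, some with 2 promoters, while that share counts single promoters. Whether a match works as a TATA box was not tested. The 250 bases before the start are printed for these 3 genes 5′ to 3′, with TATAAA and CANNTG (the letters of an E-box, held by 72.3% of all promoters) in capitals. For *Spp1* they are chr5:104434861-104435110 on the plus strand, for *Tnc* chr4:64047016-64047265 on the minus strand, and for *Thbs2* chr17:14694263-14694512 on the minus strand, where TATAAA lies on the opposite strand and reads TTTATA.
Spp1: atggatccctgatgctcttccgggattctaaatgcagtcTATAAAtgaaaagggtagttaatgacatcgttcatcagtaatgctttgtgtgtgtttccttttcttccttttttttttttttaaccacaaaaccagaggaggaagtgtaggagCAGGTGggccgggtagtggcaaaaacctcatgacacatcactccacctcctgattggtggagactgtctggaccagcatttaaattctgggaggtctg
Tnc: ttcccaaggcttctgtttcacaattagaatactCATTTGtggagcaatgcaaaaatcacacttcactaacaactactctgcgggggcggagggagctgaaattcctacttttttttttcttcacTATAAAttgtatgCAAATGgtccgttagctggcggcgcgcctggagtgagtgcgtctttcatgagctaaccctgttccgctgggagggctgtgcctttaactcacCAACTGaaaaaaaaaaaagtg
Thbs2: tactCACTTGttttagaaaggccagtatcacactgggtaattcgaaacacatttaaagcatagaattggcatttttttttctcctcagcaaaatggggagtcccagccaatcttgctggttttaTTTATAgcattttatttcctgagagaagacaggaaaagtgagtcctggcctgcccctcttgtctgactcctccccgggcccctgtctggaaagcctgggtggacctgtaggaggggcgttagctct
The TATAAA match began 211 bases before the start in *Spp1* and 126 bases before it in both *Tnc* and *Thbs2*. *Spp1* and *Tnc* each have 2 promoters in the table, of which the one starting nearest the annotated gene start is printed. The other *Spp1* promoter holds no TATAAA, and the other *Tnc* promoter holds the match 205 bases before its start. TGANTCA, the letters of an AP-1 site, was in none of the members' promoters and is held by 7.79% of all promoters. GGAATG, the letters of a TEAD site, was in the *Thbs4* promoter only among the members (14.6% of all promoters). CANNTG was in the promoters of all 7 members.

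The 4 thrombospondin genes did not move together. *Thbs1* and *Thbs4* were called higher on both days, *Thbs2* and *Thbs3* on day 7 only. Thrombospondin-1 and thrombospondin-2 are the trimeric family members, which restrain blood vessel growth through CD36 and CD47, and thrombospondin-1 also activates latent TGF-β. Thrombospondin-3 and thrombospondin-4 are pentamers. *Thbs1* (chr2:118111876-118127133, plus strand) had 8.50, 17.0, 8.88 and 7.79 CPM in sham hearts. It had 92.5, 123, 50.1 and 42.8 CPM on day 1, and 936, 267, 131 and 177 CPM on day 7. The 3 groups did not overlap, and the day 7 replicate 1 heart was 4.89 times the mean of the other day 7 hearts. The log2 FC was 2.86 on day 1 against sham (SE 0.579, adjusted p = 0.00151), 5.15 on day 7 against sham (SE 0.631, adjusted p = 9.21e-06) and 2.30 on day 7 against day 1 (SE 0.544, adjusted p = 0.00333). Without the day 7 replicate 1 heart the last 2 were 4.17 and 1.32, and *Thbs1* was still called in both.

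*Thbs2* (chr17:14665500-14694235, minus strand) was not higher on day 1. Its level was 34.8, 34.5, 32.8 and 47.3 CPM in sham hearts, 22.0, 23.0, 25.1 and 30.5 CPM on day 1, and 315, 166, 132 and 155 CPM on day 7. Every day 1 heart was below every sham heart in CPM, yet the log2 FC of −0.57 on day 1 (SE 0.23, adjusted p = 0.0602) did not pass the FDR. That outcome depended on the fit, at nearly the same log2 FC. The adjusted p was 0.0278 with DESeq2 and 0.00778 with edgeR on only the groups compared. It was 0.0581 with edgeR and RLE scaling and 0.0601 with edgeR and a replicate block. The change was under a FC of 2 in each. In TPM the groups overlapped, at 5.15 to 7.56 on day 1 and 6.12 to 8.83 in sham hearts, and the log2 FC was −0.29 with library sizes alone and −0.21 with limma on log2(TPM + 1). On day 7 *Thbs2* was called higher, with a log2 FC of 2.36 against sham (SE 0.236, adjusted p = 1.53e-06) and of 2.93 against day 1 (SE 0.241, adjusted p = 7.63e-07). *Thbs1* and *Thbs2* thus changed places. The *Thbs1* to *Thbs2* ratio of TPM was 0.247, 0.499, 0.275 and 0.166 in sham hearts, 4.35, 5.48, 2.10 and 1.42 on day 1, and 3.11, 1.66, 1.04 and 1.24 on day 7. *Thbs2* was the higher in 4 of 4 sham hearts and *Thbs1* in all AMI hearts. On log2 CPM the ratio was 3.37 higher on day 1 (SE 0.56) and 2.49 higher on day 7 (SE 0.48) than in sham, each with exact two-sided permutation p = 0.0286, the smallest that 4 hearts against 4 allow (adjusted p = 0.0367 over the 9 ratio tests). Between day 7 and day 1 it differed by −0.88 (SE 0.57, exact permutation p = 0.200).

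*Thbs4* (chr13:92751590-92794818, minus strand), which is known to be induced in stressed heart muscle, had 3.44, 5.22, 5.04 and 4.11 CPM in sham hearts. On day 1 it had 13.8, 25.8, 14.3 and 14.3 CPM, and on day 7 it had 75.6, 79.6, 48.0 and 57.3 CPM. The groups did not overlap. The log2 FC was 1.93 (SE 0.235, adjusted p = 5.32e-05) at the first step, from sham to day 1, and 1.93 (SE 0.212, adjusted p = 8.96e-06) at the second, from day 1 to day 7, which gave 3.86 from sham to day 7 (SE 0.241, adjusted p = 3.41e-08). *Thbs3* (chr3:89215180-89226837, plus strand) had 6.99, 9.73, 4.95 and 6.07 CPM in sham hearts and 7.38, 8.47, 8.96 and 7.16 CPM on day 1, and these groups overlapped. Its day 7 hearts had 37.9, 26.7, 26.6 and 37.8 CPM, above all others. The log2 FC on day 1 was 0.20 (95% confidence interval −0.21 to 0.61, adjusted p = 0.424), and on day 7 it was 2.21 against sham (SE 0.19, adjusted p = 4.32e-07) and 2.01 against day 1 (SE 0.185, adjusted p = 2.02e-06). The *Thbs4* to *Thbs3* ratio on log2 CPM was 1.65 higher on day 1 (SE 0.30) and 1.61 higher on day 7 (SE 0.31) than in sham, each with exact permutation p = 0.0286 (adjusted p = 0.0367). Between the AMI days it differed by −0.04 (SE 0.29, exact permutation p = 0.800), and the sign of that difference turned to 0.11 on log2(TPM + 0.1). No stretch of 75 bases was shared between transcripts of the 4 thrombospondin genes.

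**Figure D2:**
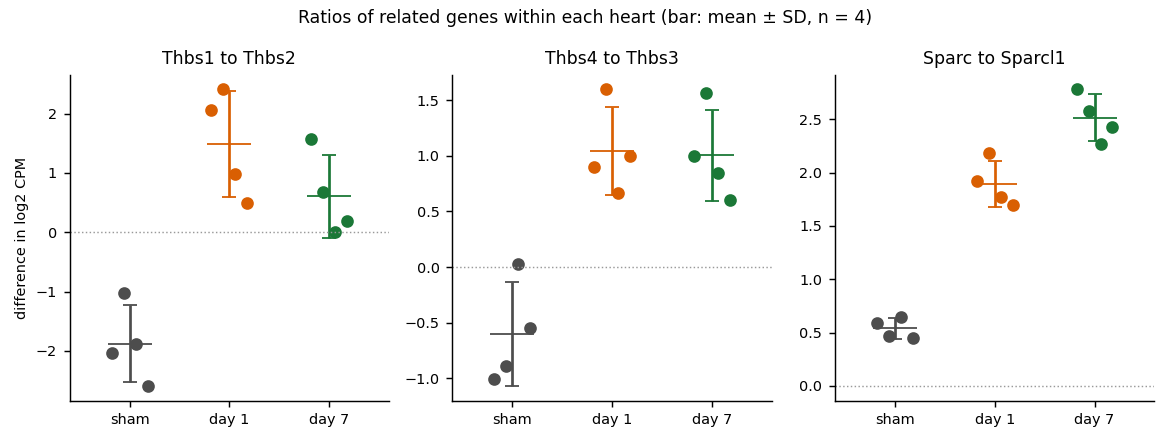
Difference in log2 CPM between *Thbs1* and *Thbs2*, *Thbs4* and *Thbs3*, and *Sparc* and *Sparcl1* in each heart, with the mean and SD of each group of 4. Each ratio is higher in every AMI heart than in every sham heart, and only *Sparc* to *Sparcl1* is also apart between day 1 and day 7.

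The *Sparc* to *Sparcl1* ratio was higher on day 1 than in sham hearts and higher again on day 7. *Sparc* (chr11:55394500-55423183, minus strand) encodes osteonectin, a collagen-binding protein that fibroblasts need to assemble mature collagen fibers. It had 329, 335, 460 and 381 CPM in sham hearts, 619, 709, 623 and 607 CPM on day 1, and 3339, 2471, 2029 and 2274 CPM on day 7. The groups did not overlap. On day 1 the log2 FC of 0.77 (SE 0.147, adjusted p = 0.00107) passed the FDR but was under a FC of 2. On day 7 it was 2.75 against sham (SE 0.156, adjusted p = 1.62e-08) and 1.98 against day 1 (SE 0.152, adjusted p = 4.45e-07).

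*Sparcl1* (chr5:104079111-104113733, minus strand) encodes hevin, a SPARC relative known from blood vessels and brain. It had 219, 242, 293 and 279 CPM in sham hearts, 164, 157, 183 and 187 CPM on day 1, and 486, 414, 420 and 422 CPM on day 7. In CPM the groups did not overlap, with day 1 lowest and day 7 highest. The log2 FC was −0.58 on day 1 (SE 0.103, adjusted p = 0.000606) and 0.75 on day 7 against sham (SE 0.103, adjusted p = 2.47e-05), both past the FDR and under a FC of 2. The day 1 value depended on the scaling. It was −0.31 with library sizes alone (adjusted p = 0.0418) and −0.26 with limma on log2(TPM + 1) (adjusted p = 0.082), and in TPM the day 1 hearts (86.0 to 107) overlapped the sham hearts (91.0 to 133). Day 7 was called higher than day 1, by 1.33 on the log2 scale (SE 0.104, adjusted p = 5.36e-07). In CPM the summed levels of vessel cell markers were also lowest on day 1. Those of endothelial cells (6 genes) were 847 to 985 CPM in sham hearts, 738 to 784 on day 1 and 1148 to 1286 on day 7. Those of mural cells (6 genes) were 1083 to 1274, 677 to 839 and 1096 to 1258, with no marker at 0 in any group. The TMM factors were 0.781 to 0.917 in sham hearts and 1.01 to 1.06 on day 1, and a larger factor lowers CPM. The sums thus depend on the scaling as well, and they are given on this scale only. Single markers differed, since *Egfl7*, *Myh11*, *Pdgfrb* and *Cspg4* had their lowest mean in sham hearts and *Abcc9* on day 7. Their part in the *Sparcl1* result was not tested. The *Sparc* to *Sparcl1* ratio of TPM was 1.73 to 2.01 in sham hearts, 4.20 to 5.72 on day 1 and 6.04 to 8.68 on day 7. On log2 CPM it was 1.35 higher on day 1 than in sham (SE 0.12), 1.98 higher on day 7 than in sham (SE 0.12) and 0.63 higher on day 7 than on day 1 (SE 0.15), each with exact permutation p = 0.0286 (adjusted p = 0.0367).

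*Fn1* and *Fbln2*, the structural members, were higher at both steps, *Fn1* by far more. *Fn1* (chr1:71585520-71653200, minus strand) encodes fibronectin, which forms the fibrils of the provisional matrix and binds integrin α5β1. It had 71.1, 67.4, 63.2 and 67.9 CPM in sham hearts, 272, 395, 212 and 213 CPM on day 1, and 3258, 1455, 940 and 1303 CPM on day 7. The groups did not overlap, and the sham hearts were the most alike of any group of any member (coefficient of variation 4.87%). The log2 FC was 2.02 on day 1 (SE 0.317, adjusted p = 0.000263), 4.69 on day 7 against sham (SE 0.354, adjusted p = 1.51e-07) and 2.67 on day 7 against day 1 (SE 0.322, adjusted p = 1.95e-05). Splice forms of fibronectin fall into a single gene value and were not analysed here.

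*Fbln2* (chr6:91212455-91272540, plus strand) encodes fibulin-2, which links fibronectin, fibrillin and proteoglycans. It had 100, 121, 123 and 130 CPM in sham hearts, 182, 264, 195 and 195 CPM on day 1, and 657, 326, 321 and 339 CPM on day 7. The groups did not overlap, and the day 7 replicate 1 heart stood apart from the other day 7 hearts. *Fbln2* was called higher on day 7 against sham (log2 FC 1.79, SE 0.212, adjusted p = 6.91e-06). It was at a FC of 1.76 on day 1 against sham (adjusted p = 0.00631) and of 1.96 on day 7 against day 1 (adjusted p = 0.00163), both past the FDR and under the FC limit. The last call depended on the hearts, since it was made when day 1 replicate 2 or day 7 replicate 2, 3 or 4 was left out singly (log2 FC up to 1.10), and the log2 FC was 0.65 without day 7 replicate 1.

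**Figure D3:**
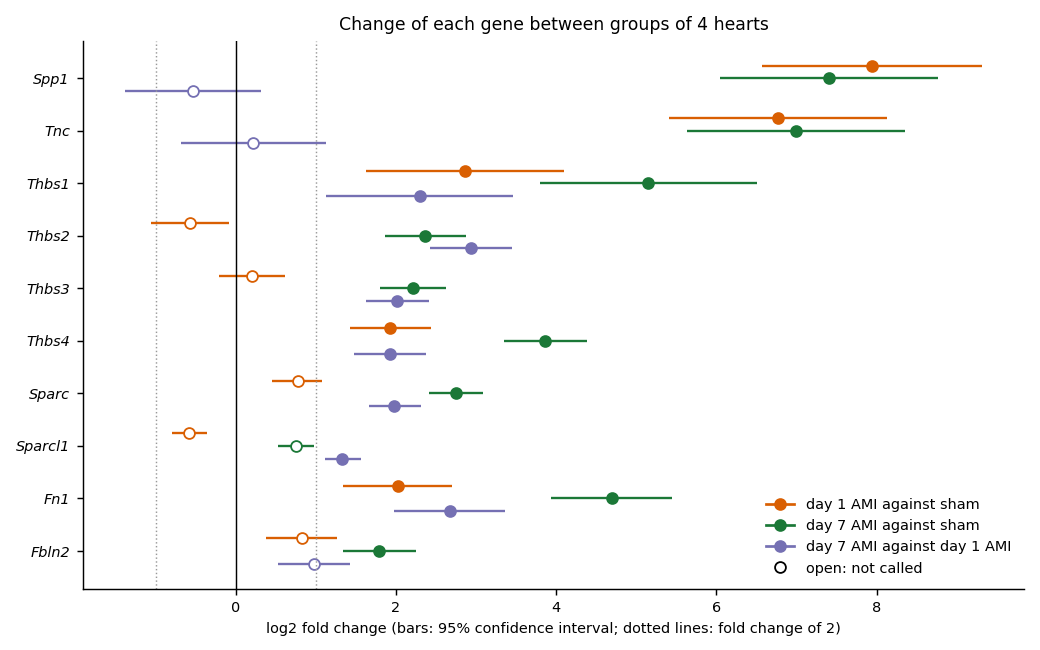
Log2 FC of each gene with its 95% confidence interval in the 3 comparisons of 4 hearts against 4, with filled points for called genes and dotted lines at a FC of 2. *Spp1* and *Tnc* have the largest changes against sham and intervals across 0 between day 7 and day 1, while *Thbs2*, *Thbs3* and *Sparcl1* changed mainly between the AMI days.

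Relative to one another, the genes kept *Sparc* on top but changed below it. Mean TPM of *Sparc* was 211 ± 41.5 (SD, n = 4) in sham hearts, 447 ± 33.3 on day 1 and 2076 ± 486 on day 7, and its share of the summed TPM of the 10 genes was 50.2% to 56.9%, 46.1% to 52.4% and 54.3% to 63.8%. On day 7 it ranked between 33 and 63 among all genes of a heart. In sham hearts *Sparcl1* (115 ± 17.7), *Fbln2* (43.1 ± 5.89) and *Fn1* (12.7 ± 1.33) came next, each above the following gene in 4 of 4 hearts, and *Spp1* (0.435 ± 0.295) and *Tnc* (0.133 ± 0.0538) were last. On day 1 *Spp1* was second at 138 ± 39.9 TPM in 4 of 4 hearts. *Sparcl1* (86.0 to 107 TPM) and *Fbln2* (79.2 to 118 TPM) were not apart on that day, and neither were *Thbs1* (18.9 ± 9.07) and *Tnc* (17.6 ± 5.06). On day 7 *Fn1* was second at 544 ± 278 TPM in 4 of 4 hearts, followed by *Sparcl1* (284 ± 24.7) and *Fbln2* (227 ± 79.8), which changed order in 1 of 4 hearts. *Spp1* and *Thbs1* had the same mean of 112 TPM on day 7, with SDs of 82.9 and 111.

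Hearts of the day 7 group differed widely for some genes. The day 7 replicate 1 heart was the highest of its group for 9 of the 10 genes, all but *Thbs4*, and day 7 replicate 3 was the lowest for 8. Among the 2346 genes called higher on day 7 against sham, 48.2% were highest in replicate 1 and 57.5% lowest in replicate 3. The coefficient of variation on day 7 ran from 7.80% for *Sparcl1* to 99.7% for *Thbs1*. Replicate 1 was 4.07 times the mean of the other day 7 hearts for *Tnc*, 2.94 times for *Spp1*, 2.64 times for *Fn1* and 1.16 times for *Sparcl1*. Among day 1 hearts, replicate 2 was the highest for 7 of the 10 genes and for 53.3% of those 2346 genes. Without the day 7 replicate 1 heart the count of called genes against sham was 9 again, and against day 1 it was 8, of which *Spp1* was lower.

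The summed marker levels of activated fibroblasts and of macrophages were highest and lowest in the same day 7 hearts. The summed level of 6 activated fibroblast markers was 112 to 237 CPM in sham hearts, 209 to 400 on day 1 and 1788 to 3228 on day 7. *Acta2*, not called in any comparison, averaged 155 CPM of a mean sum of 197 in sham hearts and 171 of 306 on day 1. *Postn*, which is also on the list of other matricellular genes, averaged 1639 of 2337 CPM on day 7. The sum was highest in replicate 1 and lowest in replicate 3 of day 7. Of the 6 markers, 4 were called higher on day 1 against sham (7.79% of all tested genes). On day 7 against sham 5 were called higher, *Postn* among them (15.3%). The 10 macrophage markers summed to 177 to 276, 308 to 423 and 456 to 717 CPM, with the same highest and lowest day 7 hearts. Of these 10, 6 were called higher on day 1 against sham (7.79%) and 8 on day 7 against sham (15.3%). Markers of fibroblasts in general (8 genes) summed to 1936 to 2515 CPM in sham hearts, 1379 to 1863 on day 1 and 2262 to 2482 on day 7. Among day 7 hearts that sum was highest in replicate 3 and lowest in replicate 2. *Gsn*, with the highest mean of that list, fell from 1404 to 674 CPM between sham and day 7. Of the 8, 4 were called higher on day 7 against sham (15.3%), among them *Lum* at a log2 FC of 2.26 and *Col15a1* at 2.54. *Gsn* was the 1 called lower (5.88%). Platelets carry thrombospondin-1, and 6 platelet markers summed to 15.6 to 39.1 CPM in sham hearts, 30.2 to 42.5 on day 1 and 17.2 to 25.7 on day 7. Of these, 1 was called higher on day 1 (7.79% of all tested genes), *Pf4* at 12.6 CPM in sham hearts and 29.4 on day 1. Called lower were 3 (2.98%), *Gp9*, *Gp1bb* and *Gp1ba*, and the median log2 FC of the 6 was −0.74. No marker of these lists was at 0 in every heart of a group, and their part in the results was not tested.

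**Figure D4:**
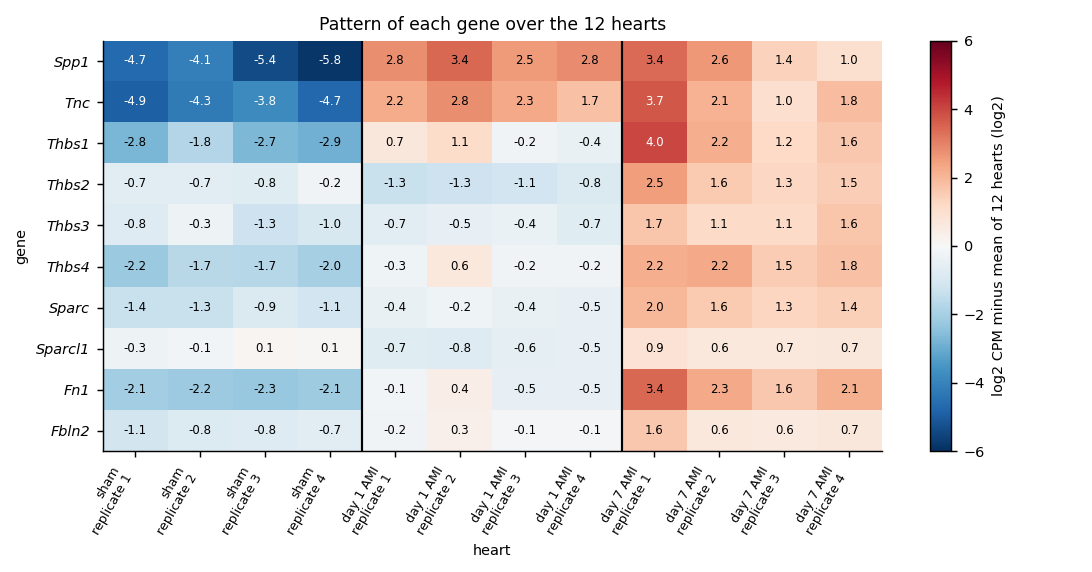
Log2 CPM of each gene minus its mean over the 12 hearts, with 1 column per heart and the value in each cell (red above, blue below the gene's mean). *Spp1* and *Tnc* run from strongly below in sham hearts to above in all AMI hearts, and day 7 replicate 1 is the reddest column.

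Other matricellular genes held both early and late ones. Of 27 listed, 21 were tested, and 6 were called higher on day 1 (7.79% of all tested genes). On day 7 against sham, 11 were called higher (15.3%) and 1 lower (5.88%), and on day 7 against day 1, 10 higher (8.55%) and 1 lower (2.69%). Their median log2 FC was −0.02, 1.47 and 0.92. *Ctgf*, which encodes the growth factor CCN2, was 71.7 ± 42.2 CPM (SD, n = 4) in sham hearts, 433 ± 194 on day 1 and 454 ± 181 on day 7. It was called on day 1 (log2 FC 2.59, adjusted p = 0.000406) and not between the AMI days (0.07, SE 0.406, adjusted p = 0.904). *Tgfbi*, which encodes a collagen- and integrin-binding protein, was called higher on day 1 (log2 FC 2.20, adjusted p = 4.14e-05). *Postn*, which encodes periostin, the classic marker of scar-forming fibroblasts, was 25.8 ± 2.30 CPM in sham hearts, 87.5 ± 20.8 on day 1 and 1639 ± 330 on day 7. Its log2 FC on day 7 was 5.99 against sham (SE 0.198, adjusted p = 1.18e-10). *Comp*, the thrombospondin-5 gene, had log2 FCs of 0.12 on day 1 (adjusted p = 0.796) and 4.14 on day 7 (adjusted p = 2.6e-07), and *Wisp1* (CCN4) of 2.02 and 3.46. *Tnn*, a tenascin gene, was called higher on day 7 than on day 1 (log2 FC 4.32, adjusted p = 2.89e-05) from 0.0811 ± 0.0560 to 1.72 ± 0.777 CPM. Its day 1 hearts had 0.0382 to 0.164 CPM, around the floor of 3 counts, so the size of this FC rests on few day 1 reads. *Spock2*, a proteoglycan of the SPARC family, was called lower on day 7 than in sham (log2 FC −1.62, adjusted p = 0.000239).

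Of 19 receptor genes tested, 4 were called higher on day 1 (7.79% of all tested genes), 8 on day 7 against sham (15.3%) and 1 on day 7 against day 1 (8.55%), and 0 were called lower. The day 7 count against sham was 13 with library sizes alone. The early ones were led by *Cd44*, the hyaluronan and osteopontin receptor, at 10.8 ± 2.91 CPM in sham hearts, 52.7 ± 14.8 on day 1 and 40.0 ± 9.28 on day 7 (log2 FC 2.28 on day 1, SE 0.237, adjusted p = 2.05e-05). *Itga5*, the fibronectin receptor's α chain, followed at a log2 FC of 1.79 on day 1 (adjusted p = 9.79e-05), and the heparan sulfate proteoglycan gene *Sdc1* at 1.63 (adjusted p = 0.000394). On day 7 *Sdc1* (log2 FC 2.14) and *Itga4* (1.91) led, and *Itgb8*, a chain of a TGF-β activating integrin, was the 1 receptor called higher on day 7 than on day 1 (1.08, adjusted p = 0.00011). The thrombospondin receptor genes *Cd36* (log2 FC −0.95 on day 7, adjusted p = 1.27e-05, under a FC of 2) and *Cd47* (0.19, adjusted p = 0.0705) were not called.

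Genes for matrix partners and matrix-cutting enzymes numbered 18. On day 1, 10 were called higher (7.79% of all tested genes). On day 7, 14 were called higher (15.3%) and 1 lower (5.88%) against sham, and 10 higher (8.55%) and 2 lower (2.69%) against day 1. Collagen I and elastin led on day 7, with *Col1a1* at 135 ± 18.3 CPM in sham hearts, 360 ± 67.4 on day 1 and 2892 ± 1597 on day 7, *Col1a2* at a log2 FC of 4.18 against sham, and *Eln* at 38.6 to 61.8, 46.3 to 70.1 and 803 to 1019 CPM. *Eln* was not called on day 1 (log2 FC 0.24, adjusted p = 0.248) and was called on day 7 (log2 FC 4.23, adjusted p = 1.46e-09), the same order as for *Thbs2* and *Thbs3*. The protease genes *Mmp9* and *Mmp3* had their highest level on day 1. *Mmp9*, which encodes gelatinase B and is abundant in neutrophils, was 2.14 ± 1.82 CPM in sham hearts, 22.0 ± 11.3 on day 1 and 1.11 ± 0.229 on day 7, and *Mmp3* was 7.32 ± 5.07, 19.8 ± 5.62 and 3.42 ± 0.756 CPM. Both were called higher on day 1 (log2 FC 3.33 and 1.43) and lower on day 7 than on day 1 (log2 FC −4.30 and −2.53). *Tgfb2* (log2 FC 1.94) and the plasminogen activator gene *Plau* (1.87) were among those called on day 1.

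The genes most like each member over the 12 hearts were found by the root mean square difference of centred log2 CPM. The nearest to *Fn1* was *Col1a1* (0.339), followed closely by *Cdk1* (0.358), and the second nearest to *Thbs1* was *Fn1* (0.533). For the other members only the nearest gene is given. *Fbln5*, another fibulin gene, was the nearest to *Thbs2* (0.25), with 32.7 ± 4.28 CPM in sham hearts, 21.1 ± 0.397 on day 1 and 127 ± 21.1 on day 7. *Cit* was the nearest to *Thbs3* (0.165), *Lhfpl2* to *Thbs4* (0.297), *C1qtnf6* to *Sparc* (0.128), *Sept4* to *Sparcl1* (0.130), *Gpr176* to *Thbs1* (0.422) and *Myo7a* to *Fbln2* (0.170). On log2(TPM + 1), *Fbln5* and *Sept4* were again the nearest to *Thbs2* and *Sparcl1*, *Fn1* was the nearest to *Thbs1* and *Col1a1* number 2 for *Fn1*. The others were farther down, with *Cdk1* and *Lhfpl2* at 13, *C1qtnf6* at 69, *Myo7a* at 72, *Gpr176* at 214 and *Cit* at 231. All points come from the same 12 libraries, so the values are a description with no test.

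Reads of some members can be shared with neighbors. Of the exon bases of *Spp1*, 18.8% overlap *Gm42793*, a provisional gene model on the same strand. Genes on the opposite strand overlap 6.59% of the exon bases of *Thbs3* (*Mtx1*), 3.42% of *Thbs1*, 2.50% of *Fn1* and 2.26% of *Tnc*, and the strand that was counted is not given in the sources used here. *Thbs2*, *Thbs4*, *Sparc*, *Sparcl1* and *Fbln2* had no such overlap.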

How the data were processed

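RNA from 12 whole hearts was sequenced as 150-bp paired-end reads. The authors trimmed reads with Cutadapt, aligned them with STAR 2.4.0j to Ensembl GRCm38 and estimated abundance by RSEM. For 53801 genes the authors deposited whole-number counts without normalization, and TPM. The tool and strand behind the raw counts are not given in the sources used here. No pair of libraries of a group repeated one another (chi-square per degree of freedom at least 9.41).

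Counts were tested with edgeR 4.0.16 (R 4.3.3, TMM, filterByExpr, quasi-likelihood, 3 groups in 1 fit, Benjamini-Hochberg over 15306 genes). Log2 CPM used a prior count of 2. Alternatives were DESeq2 1.42.0, limma 3.58.1 on log2(TPM + 1) and log2(TPM + 0.1), other scalings, no filter, only the groups compared, a replicate block, no FC minimum, and each heart left out. Ratios within hearts used exact two-sided permutation tests. The study calls the replicates biological and the labels give only their numbers, so p-values measure the spread between these libraries. On simulated data with 200 genes changed among 15306, edgeR and DESeq2 recovered 200 and limma 195, with 0 false calls. The simulation gave every gene the same spread, and only well-counted genes were changed, each by a FC of 3. It therefore cannot show how the calls perform for genes with few sham counts or widely spread hearts, such as *Spp1*, *Tnc* and *Thbs1*.

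Members and lists were chosen with earlier results of these data known. Besides the members, the text names the 3 called genes with the largest change in each direction per list and comparison with at least 1 CPM, and the genes most like a member. *Cd36*, *Cd47* and the single marker genes named were added after their values were seen. Gene positions are from GENCODE M21, and promoters from RefSeq. Protein sequences were not used here.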

Additional observations from a re-analysis of the deposited data

Results flagged for a closer look

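In 6 of 30 groups of 4 hearts (10 genes in 3 groups), 1 heart stood apart by Dixon's ratio, its gap to the nearest heart divided by the group's range on log2 CPM, above the critical value for 4 samples. Chance flags about 1 in 20 groups. Each was the highest heart of its group. In sham hearts, *Thbs1* in replicate 2 (17.0 CPM against 7.79 to 8.88 in the others) and *Thbs2* in replicate 4 (47.3 against 32.8 to 34.8) had ratios of 0.834 each. On day 1, replicate 2 stood apart for *Thbs4* (25.8 CPM against 13.8 to 14.3, ratio 0.942) and for *Sparc* (709 against 607 to 623, ratio 0.837). On day 7, replicate 1 stood apart for *Fbln2* (657 CPM against 321 to 339, ratio 0.922) and for *Sparcl1* (486 against 414 to 422, ratio 0.878). The sham replicate 2 heart also had the highest summed level of erythroid markers, 4450 CPM against 491 to 1178 in the other sham hearts. The same held for its platelet markers (39.1 CPM against 15.6 to 26.3) and neutrophil markers (55.9 CPM against 2.39 to 30.5). The part of these in its *Thbs1* value was not tested. On linear CPM, a scale added after the data were seen, 8 groups had such a heart, these 6 and also *Thbs1* in day 7 replicate 1 (0.831) and *Fbln2* in day 1 replicate 2 (0.840).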

How the results depend on the processing

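For the 10 genes in 3 comparisons, 491 of 510 alternative results kept their direction and their side of the threshold, 0 lost a call, 17 gained one and 2 reversed. The 2 that reversed were *Tnc* on day 7 against day 1, never called, at −0.06 with a replicate block and from −0.60 to 0.50 with 1 heart left out. The *Thbs4* to *Thbs3* ratio between the AMI days, also not called, was 0.11 on log2(TPM + 0.1). Without the FC minimum, 8 genes passed on day 1 against sham, *Sparcl1* among them as lower. The calls gained were *Sparc* and *Fbln2* on day 1, *Sparcl1* on day 7 against sham and *Fbln2* on day 7 against day 1, with library sizes alone and with limma on either pseudocount, and with 1 heart left out *Fbln2* and *Spp1* on day 7 against day 1. Those scalings moved the median log2 FC of all genes as well, with library sizes alone to 0.26, 0.43 and 0.15 in the 3 comparisons. The cause was not tested. Correlations of same-numbered hearts ran from −0.24 to 0.23, and the labels do not say that the numbers pair the hearts. Low correlations cannot exclude a batch shared by number. The replicate block called 5, 9 and 7 genes as before. Of 20 likeness pairs, 17 had another order on log2(TPM + 1), and 12 of them were no longer among the nearest 10 genes. With library sizes alone, 13 receptors in place of 8 were called on day 7 against sham. *Spp1* and *Tnc* in sham hearts had 4 to 25 counts, which limits their FC.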
